A study of Lates calcarifer with 8 samples.

Results

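The 200 brightest probes of a custom oligonucleotide array were described in the brains of adult female and male Asian seabass (Lates calcarifer). They were chosen from 60080 probes. Of these, 59780 were printed on 1 spot per array, and 24463 of those were well above background and free of an outlier mark on all 8 arrays. A probe's level was the log2 of its background-subtracted, detrended signal minus the log2 of the 75th percentile of that signal over the same array's non-control spots. The members were the 200 of the 24463 probes with the highest mean level over all 8 arrays, so their high levels are the basis of the choice and not a result. Each is named by its target identifier (SBRGG followed by a number), and no target had more than 1 probe on the array.

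The study compared whole brains, pituitary attached, of 4 females whose ovaries were at the stage labelled F3 and 4 males whose testes were at the stage labelled M3. All animals were adults aged 5 years and untreated, and no strain or genotype is given in the labels. Each fish had an array of its own, hybridised with Cy3-labelled material amplified from 100 ng of total RNA, so n counts animals. A whole brain mixes many cell types, and in such bulk samples fewer cells of a type and less RNA per cell cannot be told apart.

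Asian seabass usually mature first as males and later change sex to female. In vertebrate brain, the messages present in the most copies usually include those for ribosomal proteins, the cytoskeleton, energy metabolism and synaptic vesicles. The targets carry no gene name in the sources used here (0 of them matched the RefSeq table of the species), so the members could not be assigned to such classes, and the tissue label could not be checked against marker genes. On a 1-colour array, a spot's brightness depends on how well its probe binds as well as on how much transcript is present. The order of the members is therefore an order of signal, and "brightest" does not mean "most abundant".

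The 8 arrays shared 1 slide and 1 scan, with females 1 and 2 and males 1 and 2 in slide row 1 and the other 4 animals in row 2. The 75th percentile of the signal ranged from 93.1 to 129 intensity units, between 49.2% and 59.5% of spots were well above background, and 0 spots were saturated. Among the members, the highest raw spot median was 644734 intensity units, which is 82.8% of the scanner's saturation value. Of the 8 spike-in control probes well above background, 3 were brighter than the dimmest member, and 11 members were brighter than the brightest spike-in probe on all 8 arrays. The upper end of the members' range was therefore reached by no spike-in probe.

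The brightest member was SBRGG_32379 (probe CUST_50764_PI428621111), with levels (here and below in the order of animals 1 to 4 of each sex) of 11.77, 12.13, 11.81 and 11.96 in the females and 12.12, 12.11, 12.27 and 11.89 in the males. Its processed signal ran from 409650 intensity units in male 4 to 546380 in male 1. The sexes overlapped, and female minus male was -0.18 (SE 0.17, 95% interval -0.56 to 0.20, limma adjusted p = 0.939). SBRGG_23304 came next by mean, at 11.89, 12.05, 12.01 and 11.62 in the females and 11.96, 11.97, 12.16 and 12.04 in the males. It was the brightest member in female 1 and did not separate the sexes. SBRGG_32364 varied more, with 11.63, 11.13, 12.02 and 12.04 in the females and 11.74, 11.75, 12.33 and 12.23 in the males. Its 4 highest values were those of the 4 animals in slide row 2. SBRGG_32441 varied less, with 11.64, 11.69, 11.92 and 11.91 in the females and 11.89, 11.82, 12.15 and 11.81 in the males.

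The remaining members of the brightest 10 were SBRGG_28251, SBRGG_32338, SBRGG_32381, SBRGG_32375, SBRGG_32477 and SBRGG_32230, with mean levels from 11.85 down to 11.66. The 10 brightest thus lay between 12.01 and 11.66, a span of less than 1.5-fold. Below them the levels fell away, to 7.44 at rank 200. At the lower edge, SBRGG_10602, SBRGG_05147 and SBRGG_28256 were the last 3 inside, with means of 7.47, 7.45 and 7.44. SBRGG_52183, SBRGG_20467 and SBRGG_15210 were the first 3 outside, at 7.44, 7.42 and 7.42. The edge therefore fell within a continuous run of values and not at a gap.

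Brightness was not the only reason for which a probe was in or out. There were 126 probes with a mean level above that of the dimmest member which did not qualify. Of these, 103 were printed on 6 spots, 34.3% of the 300 probes printed that way, and all of the other 23 carried an outlier mark on at least 1 array. With the probes on 6 spots admitted, 111 of the resulting 200 brightest were members. The description below holds for probes on 1 spot.

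Although they made up 0.333% of the probes, the 200 members held 20.3% ± 0.71 (SD, n = 8) of the signal of all non-control spots. The share was 19.8%, 20.5%, 20.8% and 20.1% in the females, and 19.2%, 21.6%, 20.4% and 19.9% in the males. Its lowest and highest value both came from males, on either side of all 4 females. The mean was 20.3% ± 0.45 (SD, n = 4) in females and 20.3% ± 0.99 (SD, n = 4) in males. Because the members were chosen for their signal, no test was made of the share.

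Within the members the signal was concentrated at the top. The brightest 10 held 4.55% of all signal, the brightest 50 held 13.8% and the brightest 100 held 17.2%. The next 200 probes, at ranks 201 to 400, added 3.10%. The size of the members' share rests on what it is divided by, since the 1800 spots of the 300 probes printed 6 times held 58.7% of the signal. With each of those probes counted as 1 mean spot, the members' share was 39.7%, and of the signal of the 24463 qualifying probes alone they held 54.2%.

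The ranks were next compared between animals and sexes. When the 200 brightest probes were chosen separately on the 4 female and on the 4 male arrays, 185 were in both sets. All 200 of the female set ranked within the first 400 in males, the lowest at 280. Of the male set, 199 ranked within the first 400 in females, and the remaining 1 stood at rank 582. On single arrays, between 180 and 183 of the members were among that array's own 200 brightest. In all, 262 probes were among the 200 brightest on some array and 133 were so on all 8.

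A member's ranks over the 8 arrays spanned a median of 56 places (quartiles 30.75 and 104), with medians of 19, 48.5, 74.5 and 100 in successive groups of 50 from the brightest down. The steadiest were SBRGG_32441 (ranks 3 to 7), SBRGG_32379 (1 to 8), SBRGG_07657 (12 to 19), SBRGG_32230 (6 to 15) and SBRGG_15895 (38 to 47). The widest, not all near the lower edge, were SBRGG_18213 (32 to 1458), SBRGG_09286 (90 to 759), SBRGG_06565 (52 to 636), SBRGG_01286 (53 to 628) and SBRGG_14803 (down to 626). SBRGG_18213 was the only member to drop beyond rank 1000 on any array. At the top, 4 members ranked first on some array, namely SBRGG_23304, SBRGG_32379, SBRGG_32364 and SBRGG_32267, and 2 members were among the brightest 10 on all 8.

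The members' order was about as alike between the sexes as within a sex, and most alike among the arrays of slide row 2. Spearman's rho across the 200 members had a median of 0.828 over the 12 pairs of same-sex arrays and 0.826 over the 16 opposite-sex pairs. It was 0.936 (0.909 to 0.941) over the 6 pairs within row 2 and 0.802 (0.766 to 0.854) over the 6 pairs within row 1, and 0.822 for pairs from different rows. All points within a pair share an array, so these values are descriptions across probes and have no p. The brightest 200 chosen on row 1 and on row 2 shared 178 probes, against 185 for the sexes.

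No member was called between the sexes in limma's moderated test after Benjamini-Hochberg adjustment over 32851 tested probes (0 of 200, smallest adjusted p = 0.789). The same rule called 0.0761% of all tested probes, so among 200 probes a count of 0 is near that background. Without adjustment, 3 members (1.5%) had a limma p under 0.05, against 4.99% of all tested probes. On the authors' table of log2 values limma again called 0 members, with 5 at an unadjusted p under 0.05.

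SBRGG_08603 had the smallest unadjusted p of the members. Its levels were 9.42, 9.56, 9.86 and 10.05 in the females and 9.12, 8.99, 9.03 and 9.26 in the males, so every female lay above every male. The means were 9.72 ± 0.29 and 9.10 ± 0.12 (SD, n = 4 each), a difference of 0.62 (SE 0.19, 95% interval 0.19 to 1.05, limma unadjusted p = 0.00938, adjusted p = 0.789). With normexp background correction the difference was 0.58 and the limma unadjusted p was 0.143. After quantile normalization they were 0.78 and 0.00200. SBRGG_08603 was the single member with every female above every male, an arrangement that 1.53% of all tested probes had. Every male lay above every female in 2 members, SBRGG_15087 and SBRGG_03069, against 2.27% of all tested probes. SBRGG_03069 read 8.08, 8.10, 7.87 and 8.05 in the females and 8.28, 8.10, 8.22 and 8.26 in the males, with female 2 and male 2 closest, and a difference of -0.19 (95% interval -0.53 to 0.15, limma adjusted p = 0.939). These 2 members and SBRGG_08603 were singled out after their values were seen.

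SBRGG_01519 and SBRGG_00217, also singled out for their unadjusted p, had lower means in females. SBRGG_01519 read 7.02, 6.73, 8.22 and 8.00 in females and 8.22, 8.06, 8.91 and 8.63 in males, a difference of -0.96 (95% interval -1.79 to -0.13, limma adjusted p = 0.939). SBRGG_00217 read 8.74, 8.47, 9.81 and 9.67 in females and 10.10, 9.74, 10.19 and 9.96 in males, a difference of -0.83 (95% interval -1.54 to -0.11, limma adjusted p = 0.939). In both, the females of row 2 overlapped with the males of row 1, but within each slide row both males were above both females. The share of all tested probes with that arrangement is not given here, so it adds no evidence of a sex difference. With slide row as a block, the limma unadjusted p was 0.00119 for SBRGG_01519 and 0.00886 for SBRGG_00217, and the adjusted p 0.331 and 0.631. Without that block the limma unadjusted p was 0.0278 and 0.0282, and with slide column as a block 0.0649 and 0.0422. With array weights it was 0.0780 and 0.0914, and with normexp background correction 0.0221 and 0.00745.

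In the other 4 of the 5 members with the largest fitted sex differences, 1 or 2 animals stood furthest apart. SBRGG_18213 read 4.53, 10.27, 10.26 and 7.90 in females and 10.32, 10.22, 10.29 and 10.16 in males, a difference of -2.01 (95% interval -4.55 to 0.53). Females 2 and 3 lay within the male range, and without female 1 the difference was -0.78. SBRGG_32340 read 9.90, 11.12, 11.38 and 11.47 in females and 7.34, 6.68, 11.67 and 11.52 in males, a difference of 1.67 (95% interval -0.91 to 4.25). Males 3 and 4 were above all 4 females and males 1 and 2 far below them. Its difference was 1.01 without male 1 and 0.79 without male 2. SBRGG_14803 read 7.33, 5.72, 7.58 and 8.25 in females and 8.24, 8.25, 7.89 and 8.24 in males, a difference of -0.94 (SE 0.47, limma adjusted p = 0.939). SBRGG_22706 read 9.68, 7.97, 10.92 and 10.91 in females and 10.83, 10.96, 10.91 and 10.34 in males, a difference of -0.89 (95% interval -2.25 to 0.47). Both had their lowest value in female 2, without which the differences were -0.44 and -0.25, and in both female 4 lay within or above the range of the males. Within slide row 2 alone, the 2 members SBRGG_32340 and SBRGG_22706 differed by -0.17 and 0.29 between the sexes, the opposite sign to the whole, while SBRGG_18213 and SBRGG_14803 kept their sign at -1.15 and -0.16.

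The intervals say how large a sex difference the 8 arrays still allow. For 155 members (77.5%) the 95% interval lay wholly within 2-fold in either direction, against 66.7% of all tested probes and 78.0% of the probes at ranks 201 to 400. For 69 members (34.5%) it lay within 1.5-fold, against 21.8% of all tested probes and 31.0% of those at ranks 201 to 400. The interval lay within 4-fold for 193 members and likewise for 193 probes at ranks 201 to 400. Its median half-width was 0.51 for the members, 0.49 at ranks 201 to 400 and 0.58 for all tested probes. By rank, 33, 35, 43 and 44 of the 50 members at ranks 1 to 50, 51 to 100, 101 to 150 and 151 to 200 stayed within 2-fold. In the other members the interval reached beyond 2-fold in at least 1 direction.

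The sign of the members' median sex difference depended on the scaling. Relative to the 75th percentile, the difference was below 0 in 144 members and above 0 in 56, against 54.2% below 0 among all tested probes. The members' median was -0.13 with scaling to the 75th percentile, but 0.015 after quantile normalization, 0.011 on the authors' table and 0.047 with scaling to the spike-in probes, so its sign flipped under these 3 scalings. The median over all tested probes was -0.03 with scaling to the 75th percentile, and spike-in scaling moved it to 0.15. Since spike-in scaling shifts all probes alike, the members' median stayed 0.10 below that of all tested probes under it, as with scaling to the 75th percentile. After quantile normalization and on the authors' table the members' median was 0.03 and 0.02 above that of all tested probes. The probes at ranks 201 to 400 had a median of -0.15. The 8 spike-in probes, which report RNA added at labelling and not fish RNA, were also lower in females, by -0.12 to -0.32.

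The males were not alike in this. The members' median deviation, each member taken from its own mean over the 8 arrays, was 0.30 in male 3 and 0.14 in male 4. It was -0.06 to 0.03 in the other 6 animals. The spike-in probes deviated by 0.45 in male 3 and 0.19 in male 4, and by 0.15 in female 2. Whether the spike-in and the member deviations share a source was not tested. Within slide row 1 the members' median sex difference was -0.06, and 0 members were called. There 9 members (4.5%) had a limma unadjusted p under 0.05, against 6.79% of all tested probes. Within row 2 the median was -0.17, with 16 such members (8.0%) against 11.4% of all tested probes, and again 0 called.

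Slide row was compared in the same way, since each row held 2 females and 2 males. No member was called between rows (0 of 200, limma smallest adjusted p = 0.0570), against 0.0944% of all tested probes. Starting from median spot signals with normexp correction and an offset of 50, limma called 12 members and 1.62% of all tested probes. At an unadjusted p under 0.05 there were 33 members (16.5%) against 13.9% of all tested probes. Of these, 27 were higher in row 2, an outcome shown by 7.92% of all tested probes. At ranks 201 to 400, 25 of the 200 probes had such a p, and all 25 were higher in row 2. The members' median row 2 minus row 1 difference was 0.16, against 0.03 for all tested probes and 0.19 at ranks 201 to 400. However, the members' median was -0.08 after quantile normalization, -0.05 on the authors' table and -0.02 with spike-in scaling. Spike-in scaling moved the median of all tested probes to -0.14, so the members stayed 0.13 above all tested probes on that scale, as with scaling to the 75th percentile. After quantile normalization and on the authors' table they were below all tested probes, by -0.08 and -0.06. The spike-in probes were themselves 0.18 higher in row 2.

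The member with the smallest p between rows was SBRGG_10662. It read 7.71 and 6.81 in females 1 and 2 and 7.41 and 8.14 in males 1 and 2, all in row 1. In row 2 it read 9.23 and 9.31 in females 3 and 4 and 9.73 and 9.52 in males 3 and 4. The rows did not overlap, and row 2 was higher by 1.93 (SE 0.28, limma adjusted p = 0.0570). In row 1 the sexes overlapped, and in row 2 both males were above both females. It passed the threshold under 4 of 19 alternatives, over all 19 of which the limma adjusted p ran from 0.0192 to 0.192, and it was named after its values were seen.

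Variation between animals of the same sex was close to that of other measured probes. The within-sex SD had a median of 0.30 over the members (quartiles 0.19 and 0.46), against 0.29 for ranks 201 to 400, 0.33 for all qualifying single-spot probes and 0.37 for all tested probes. For the spike-in probes it was 0.24, which includes their deviations by whole array. The error that the scanner software gave for a signal had a median over members and arrays of 10%, or 0.14 on the log2 scale. The within-sex SD of 17 members was no larger than that. The software's figure was not checked against repeat spots here, so it is not a measured technical error. By rank, the median SD was 0.33, 0.39, 0.28 and 0.25 in the successive groups of 50. With slide row and sex both fitted, the median SD over all members was 0.28.

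The steadiest member was SBRGG_17815, at 7.77, 7.71, 7.74 and 7.88 in females and 7.82, 7.74, 7.76 and 7.80 in males. Its within-sex SD was 0.06, and the 95% interval of female minus male was -0.33 to 0.32. SBRGG_03069, SBRGG_17499, SBRGG_01542 and SBRGG_08514 followed, with SDs from 0.09 to 0.11. These SDs are below those of the spike-in probes, the lowest of which was 0.16, but the measures are not alike. Each spike-in level was a median over up to 35 spots, scaled to the 75th percentile of the non-control spots. The spike-in SDs include deviations of whole arrays, from -0.22 in female 1 to 0.45 in male 3. They are therefore not a measure of the technical variation of a member.

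At the other end, 10 members (5.00%) had a within-sex SD above 1, against 2.45% of all qualifying single-spot probes and 5.62% of all tested probes. The highest were SBRGG_32340 (1.95), SBRGG_18213 (1.92), SBRGG_06565 (1.80), SBRGG_01286 (1.62) and SBRGG_32342 (1.43). SBRGG_06565 read 5.80, 9.08, 9.58 and 9.83 in females and 9.32, 6.25, 9.88 and 9.75 in males. Female 1 and male 2 were low, and the other 6 animals were within a range of less than 2-fold. SBRGG_01286 read 5.81, 8.71, 9.77 and 8.70 in females and 6.42, 7.14, 9.74 and 8.92 in males, with its 3 lowest values all in row 1. SBRGG_32342 read 9.46, 11.65, 11.71 and 11.73 in females and 8.32, 10.80, 11.96 and 11.81 in males, again with its 3 lowest in row 1.

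Low values on single arrays widen a member's SD by construction. Of the members' 1600 values, 22 in 17 members lay more than 4-fold below the same probe's median over the 8 arrays, and 0 lay more than 4-fold above. This is 1.38% of values, against 0.435% of the 195704 values of all qualifying single-spot probes, of which 0.0915% lay as far above. The choice of probes limits that comparison. Qualifying probes had to be well above background on all 8 arrays, so a dim probe with such a drop could fail to qualify. A member could drop as far and stay in. The brightest members could not rise 4-fold without passing the scanner's saturation value, but the dimmer members could. Whether this bears on the count of 0 above was not tested, and that count stands beside a share of only 0.0915% over all qualifying values. Row 1 arrays held 20 of the 22, with 9 in female 1, 2 in female 2, 6 in male 1 and 3 in male 2, and the other 2 were in female 4 and male 4. The split by row of such values over all qualifying probes is not given here, so the split is not a trait of the members. Spots marked as non-uniform numbered 78 and 71 in females 1 and 2 and 59 and 136 in males 1 and 2. In row 2 they numbered 4 and 15 in females 3 and 4 and 7 and 31 in males 3 and 4. The lowest was SBRGG_18213 in female 1, which deviated by -5.71 from its median of 10.24 on the log2 scale.

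Neighbouring spots on the glass were often low at the same places. At the 22 values, the median deviation of the 24 nearest spots from their means over the 8 arrays was -0.37. Over all member values that deviation had a median of 0.03 and a 5th percentile of -0.18. In 15 of the 22 it was below -0.1, and the share of all member values below that cutoff is not given here. The comparison pools both slide rows, although row 1 held 20 of the 22 values. SBRGG_32342 and SBRGG_09286 were printed in the same array row, 144, at columns 59 and 57. Both were low in male 1, at 8.32 and 5.53, and there the nearest spots deviated by -1.22 and -1.19. At such close positions the nearest spots can be the same ones, so these are not 2 separate observations. SBRGG_32342 was also low in female 1, by -2.22, where its nearest spots deviated by 0.11. Among the members with the largest sex differences, the nearest spots of SBRGG_32340 deviated by -0.70 in male 1 and -1.04 in male 2. Those of SBRGG_18213 deviated by -0.89 in female 1 but 0.19 in female 4. In female 2, those of SBRGG_14803 deviated by -0.39 and those of SBRGG_22706 by -0.05. After correction of each spot by its 24 nearest, 13 of the 22 remained more than 4-fold low. In SBRGG_06565 the nearest spots deviated by 0.03 in female 1 and -0.06 in male 2, so its low values had no such neighbourhood.

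The targets' identifying numbers were unevenly represented among the members. Numbers from 32000 to 32999 held 34 members (17.0%) but 1.65% of all single-spot probes and 1.39% of the qualifying ones. They held 8 of the brightest 10, 23 of the brightest 50 and 6 of the 100 dimmest members. These 34 probes held 8.29% of all signal, and their median within-sex SD was 0.38, against 0.28 for the other members. Numbers under 1000 held 21 members, and 916 of the 59780 single-spot probes. Numbers above 33000 held 6 members, while 47.1% of single-spot probes had such numbers. Members could come only from the qualifying probes, and the share of those with such numbers was not computed. This grouping was chosen after the values were seen and was not tested, and the sources used here do not say how the numbers were assigned.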

How the data were processed

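Members and tests were chosen with earlier results of these data known. Per the file headers, the deposited spot intensity values are output of Agilent Feature Extraction 10.7.1.1, which subtracted background and removed a spatial trend. A second deposited table held log2 values for these arrays. Partek, with no version, is the tool listed in the submitters' processing notes. Sorted values of that table were nearly identical between arrays, how it was made is not given in the sources used here, and it was used as an alternative scale.

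Spots marked as non-uniform were set to missing, control spots were dropped, and repeat spots were averaged. All 200 members were among the 32851 probes tested, each well above background on at least 4 of 8 arrays, and 27229 were not tested. Female minus male differences, 95% intervals and adjusted p-values came from limma 3.58.1 in R 4.3.3 (lmFit, eBayes, no covariates, two-sided, Benjamini-Hochberg over all tested probes, threshold 0.05). The limma code was also run on simulated data with known changes, whose means and spreads were taken from these data. Ranks, shares and SDs were computed with Python 3.11.15, numpy 2.4.6 and pandas 2.3.3. Scaling, background correction, filter, weights, slide position, set size and single arrays were varied. A planned test of the members' signal share between sexes was not run, since the members were chosen by signal. Members were named for the highest means, the extremes of sex difference, SD and rank range, and the edge of the set, and others are said to be chosen later. The number of arrays limits the precision.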

Additional observations from a re-analysis of the deposited data

Results flagged for a closer look

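In each sex, the levels of the named members, the share of signal and the members' median deviation were examined for 1 animal standing far from the other 3. Of these 66 groups of 4, 6 had such an animal. Chance marks about 1 in 20 groups chosen without regard to spread. Many named members, flagged or not, were chosen for wide or narrow spread, so that rate does not apply to the 66 groups. Among the flagged ones, SBRGG_14803, SBRGG_06565, SBRGG_32342 and SBRGG_09286 were named for wide differences, SDs or rank ranges. SBRGG_32381 was 11.65 in female 2, against 11.81 to 11.83 in the other females. SBRGG_32375 was 10.95 in male 3, against 11.83 to 11.93 in the other males. SBRGG_14803 was 7.89 in male 3, against 8.24 to 8.25. SBRGG_06565 was 6.25 in male 2, against 9.32 to 9.88. SBRGG_32342 was 9.46 in female 1, against 11.65 to 11.73. SBRGG_09286 was 5.53 in male 1, against 8.51 to 8.64. All 6 were low values, and 4 of them were on arrays of slide row 1.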

How the results depend on the processing

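No member was called between the sexes under any of 22 alternatives (0 calls, limma), and the count with intervals within 2-fold ran from 133 to 171. Spike-in scaling, local correction, 1 mean spot per probe and admission of 6-spot probes were chosen after seeing the data. The median sex difference was 0.015 with quantile normalization, 0.011 on the authors' table and 0.047 with spike-in scaling, and -0.17 to -0.08 when single animals were left out. Members called between slide rows numbered 12 with normexp (531 of all tested probes, against 31), and 1 each with detection on all 8 arrays (22 of all), an intensity trend (32) or array weights (45). The share of signal was 39.7% with 1 mean spot per probe, 51.2% with 6-spot probes admitted, 17.2% for the 100 brightest and 23.4% for the 400 brightest. Admitting 6-spot probes kept 111 members, normexp kept 185, and leaving out single animals kept 195 to 199. The median SD was 0.35 for the 100 brightest. The cause of these changes was not tested beyond what each alternative alters by construction. The sex differences of the 7 members recomputed singly (the 5 largest, SBRGG_00217 and SBRGG_08603) kept their sign under 20 alternatives, with limma adjusted p of 0.331 or more. These alternatives reuse the arrays on which the 7 were picked, so a kept sign is no independent support. The differences within slide row 2 alone, where SBRGG_32340 and SBRGG_22706 had the opposite sign, are not among the 20. By replicate number, no paired analysis was possible because the numbers follow accession order and the labels tie no female to a male. With slide column, which holds 1 female and 1 male each, as a block, 0 members were called and 147 had intervals within 2-fold. Above the brightest spike-in probe, the response of the signal to RNA amount was not measured here.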
